A study of Mus musculus with 5 samples.

Results

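The MHC class II presentation genes described here are 10 genes, Cd74, H2-Aa, H2-Ab1, H2-Eb1, H2-DMa, H2-DMb1, H2-DMb2, H2-Oa, H2-Ob and Ciita, taken by symbol from the 33696 genes listed in single-cell RNA sequencing of mouse blood mononuclear cells. The mice were C57BL/6N, and the study modelled HFpEF, the form of heart failure in which the ejection fraction is preserved. Chow-fed mice gave 2 libraries (chow 1 and chow 2). Mice fed a fat-rich diet (HFD) for 15 weeks and given L-NAME, which blocks nitric oxide synthesis, gave 2 further libraries (HFD + L-NAME 1 and 2). The same regimen with nitro-oleic acid, an electrophilic fatty acid, added for the last 4 weeks gave 1 library (NO2-OA). No genetic change is named, and age and sex are not given in the sources used here. Every sample was blood taken into EDTA, separated on Ficoll, treated to lyse erythrocytes, frozen and thawed before droplet capture. The labels do not say whether a library is 1 animal or a pool, so each p-value rests on library-to-library spread, which may be technical.

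MHC class II molecules are pairs of an alpha and a beta chain that display peptides from endocytosed proteins to CD4 T cells. H2-Aa and H2-Ab1 encode the chains of I-A, and H2-Eb1 encodes the beta chain of I-E, whose alpha chain is not made by C57BL/6 mice. Cd74, the invariant chain, escorts new class II molecules to endosomes and blocks their groove. There the H2-DM molecule, an H2-DMa chain with an H2-DMb1 or H2-DMb2 chain, exchanges the remnant of Cd74 for peptide, and H2-DO, a pair of H2-Oa and H2-Ob, restrains H2-DM. Ciita is the coactivator that switches these genes on through factors bound to a shared pair of promoter elements, the X and Y boxes. In blood, B cells and dendritic cells are the main carriers of class II, monocytes can be induced to make it, and resting mouse T cells make little or none.

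The promoter pair is printed to show the letters that the genes have in common. RefSeq promoters of build GRCm38.p6, from 250 bases before to 50 bases after a start, were matched by symbol for 7 of the 10 genes, all on chromosome 17. The counts were made on build mm39, so these positions are not those of the counted reads. An X-like run (AAC, then 2 or 3 bases of any kind, then TGA, any base and G) followed by a Y run (GATTGG) after 5 to 40 bases was searched on both strands. These letters were chosen with the promoters in view. The pair was in 40 of 32851 promoters of this length (0.122%) and in 5 of the 7 genes. GATTGG, with or without an X run, was in 16.1% of promoters, the X-like run with 3 free bases in 2.88% and that with 2 in 2.95%. In the lines below the capitals are first the X run and then the Y run, on the gene's own strand, and neither run overlaps the other.

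H2-Aa: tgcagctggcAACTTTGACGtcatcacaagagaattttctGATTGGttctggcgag

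H2-Eb1: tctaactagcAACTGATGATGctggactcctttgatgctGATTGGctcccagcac

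H2-DMb1: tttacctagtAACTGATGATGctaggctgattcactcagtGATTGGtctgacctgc

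H2-DMb2: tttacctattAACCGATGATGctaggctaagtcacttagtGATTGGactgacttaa

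H2-Ob: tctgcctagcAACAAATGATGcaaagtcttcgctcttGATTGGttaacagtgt

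These windows lie at chr17:34287857-34287912 on the minus strand for H2-Aa, and on the plus strand at chr17:34305768-34305822 for H2-Eb1, chr17:34153089-34153144 for H2-DMb1, chr17:34145118-34145173 for H2-DMb2 and chr17:34238810-34238862 for H2-Ob. The X and Y runs stood 20 bases apart in H2-Aa, 19 in H2-DMb1 and H2-DMb2, 18 in H2-Eb1 and 16 in H2-Ob. The Y run of H2-Oa stood alone:

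H2-Oa: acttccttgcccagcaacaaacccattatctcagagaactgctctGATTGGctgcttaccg

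That window is chr17:34092290-34092350 on the plus strand. Of the pair of H2-DMa promoters listed, the second held GATTGG without an X run and the first held neither. A match is a description of letters and not of a bound factor. H2-Ab1 and Ciita were not in the table, and no sequence is shown for Cd74.

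The 5 libraries held 66693 barcodes with at least 500 unique molecular identifiers (UMIs, each 1 captured transcript) and 71216133 to 122022000 UMIs per library. Median depth ran from 5741 to 7043.5 UMIs per barcode. After filters and removal of predicted doublets, 54679 cells were kept, and 28 to 77 barcodes were shared by each pair of libraries. Marker genes named 13 cell classes, written here as B-like and so on because no surface stain defines them. The class II genes were left out of the genes used for clustering. Levels are UMIs of a gene per 1000000 UMIs (CPM) of a class in 1 library, given where the class had at least 20 cells. The 3′ tag method counts transcript ends, so levels of different genes are set side by side only as ratios between classes. Macrophage-like cells were named in chow 2 (102 cells) and HFD + L-NAME 2 (257 cells) only, plasmacytoid dendritic-like cells passed 20 cells in those same libraries, and conventional dendritic-like cells numbered 97, 100, 60 and 47 in the chow and HFD + L-NAME libraries but 1 in NO2-OA. With predicted doublets kept, NO2-OA had 31 conventional dendritic-like cells, with Cd74 at 6915 CPM.

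B-like and conventional dendritic-like cells carried the highest class II levels, and each had its own balance of the accessory genes. The 10 genes made up 2.05% of all UMIs of conventional dendritic-like cells (median of 4 libraries, 1.45% to 2.57%) and 1.34% of those of B-like cells (5 libraries, 1.06% to 1.58%). The share was 0.194% in classical monocyte-like, 0.0911% in non-classical monocyte-like and 0.0104% in CD4 T-like cells. Because they were the most numerous class, B-like cells held 87.5% to 94.8% of all Cd74 UMIs of kept cells and 73.2% to 83.3% of all H2-DMa UMIs.

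**Figure D1:**
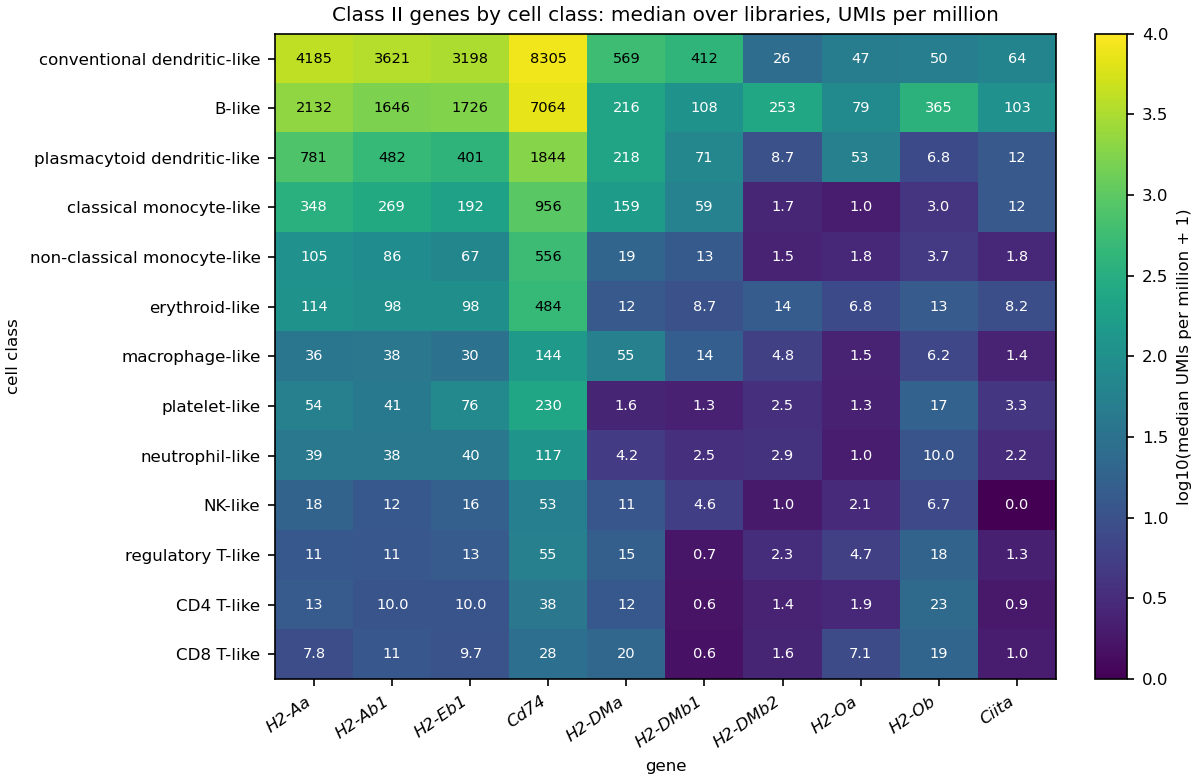
Median level over libraries of each of the 10 genes (columns) in each of 13 cell classes (rows), in CPM, with colour on a log10 scale of the median plus 1. Conventional dendritic-like and B-like rows are highest for the chains and Cd74, while H2-DMb2 and H2-Ob are highest in the B-like row (253 and 365).

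The classical chains were led by conventional dendritic-like cells. H2-Aa was at 3129 and 5540 CPM there in chow 1 and 2 and at 3907 and 4462 CPM in HFD + L-NAME 1 and 2. In B-like cells it was at 1808, 2766, 2299, 1853 and 2132 CPM in chow 1, chow 2, HFD + L-NAME 1, HFD + L-NAME 2 and NO2-OA, the order used for all values of 5 libraries below. The ranges of these classes did not overlap for H2-Aa or H2-Ab1, and they overlapped for H2-Eb1 (1941 to 4517 CPM against 1267 to 2257 CPM). Plasmacytoid dendritic-like cells came next for all 3 chains, at 412.1 to 1149 CPM of H2-Aa, and overlapped classical monocyte-like cells at 107.0 to 684.4 CPM.

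Cd74 was the most counted of the 10 genes, with 1455145 UMIs over all barcodes. It was at 5366, 7347, 7238, 7064 and 6764 CPM in B-like cells, and at 6176, 9905, 7450 and 9161 CPM in the chow and HFD + L-NAME libraries of conventional dendritic-like cells, so the classes overlapped. Per UMI of the 3 chains together, Cd74 gave 1.04 to 1.36 UMIs in B-like cells and 0.681 to 0.835 in conventional dendritic-like cells, ranges that did not overlap. Non-classical monocyte-like cells had more Cd74 per chain UMI, at 1.87 to 3.17, with no overlap with B-like or classical monocyte-like cells (1.04 to 1.69).

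The peptide exchanger H2-DM was built from different beta-chain transcripts in different classes. H2-DMb1 was at 293.7, 388.5, 436.3 and 445.3 CPM in conventional dendritic-like cells, 309% to 459% of the B-like level of the same library. H2-DMb2 went the other way, with 181.9, 317.9, 252.7, 247.8 and 258.3 CPM in B-like cells and 6.58, 55.6, 12.8 and 38.9 CPM in conventional dendritic-like cells. As a share of both beta-chain transcripts, H2-DMb2 was 65.7% to 72.1% in B-like cells. It was 2.19% to 12.5% in conventional dendritic-like, 10.3% to 11.1% in plasmacytoid dendritic-like, 0.870% to 5.49% in classical monocyte-like and 6.67% to 14.7% in non-classical monocyte-like cells. None of these myeloid ranges reached the B-like range. The paralogs lie 1517 bases apart, and their GENCODE M21 transcripts were 94.6% identical over 1219 aligned bases but 74.8% over 278 aligned bases of the last 300, the end that the method reads. Reads could be split between them by the authors' counting, so single values of this pair are less certain than those of the other genes.

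By median share of the B-like level, H2-DMa, the shared alpha chain, was the gene on which classical monocyte-like cells came closest to B-like cells. It was at 158.9, 197.6, 146.5, 164.9 and 121.3 CPM there and at 161.5, 282.8, 230.4, 197.0 and 216.5 CPM in B-like cells, 56.0% to 98.4% of the B-like level within a library. For H2-DMb1 the same share was 44.7% to 78.6%, with overlap, and the medians were 69.9% for H2-DMa and 60.2% for H2-DMb1. For Cd74 the share was 6.64% to 21.8%. H2-DMa exons overlap those of Brd2 on the opposite strand, and strand use in the counting is not stated. Brd2 was at a median of 155 CPM in neutrophil-like cells, where H2-DMa was at a median of 4.19 CPM.

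By level against the class ranked second, H2-DMb2 and the H2-DO chain H2-Ob were the most B-restricted of the 10. The other H2-DO chain, H2-Oa, was less so, at 40.8% to 63.2% of the B-like level in conventional dendritic-like cells. H2-Ob was at 323.9, 398.9, 365.0, 303.2 and 367.5 CPM in B-like cells and at 39.5 to 71.7 CPM in conventional dendritic-like cells, the class ranked second, with no overlap. H2-Oa was at 66.9 to 134.8 CPM in B-like, 52.7 and 54.3 CPM in plasmacytoid dendritic-like and 37.0 to 55.0 CPM in conventional dendritic-like cells, where the B-like range stood clear and the dendritic ranges overlapped. Per 100 H2-DM UMIs, B-like cells had 69.7 to 89.1 H2-DO UMIs, conventional dendritic-like cells a median of 9.88 and classical monocyte-like cells 1.06 to 2.53.

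The chains of H2-DO did not keep 1 ratio. H2-Oa made up 17.1% to 25.3% of H2-DO UMIs in B-like cells and 43.4% to 51.3% in conventional dendritic-like cells. In plasmacytoid dendritic-like cells it made up 81.8% and 96.7%, from 47 H2-Oa and 5 H2-Ob UMIs in all. H2-Oa overlaps the antisense gene BC051537, which was at a median of 2.05 CPM in B-like cells.

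**Figure D2:**
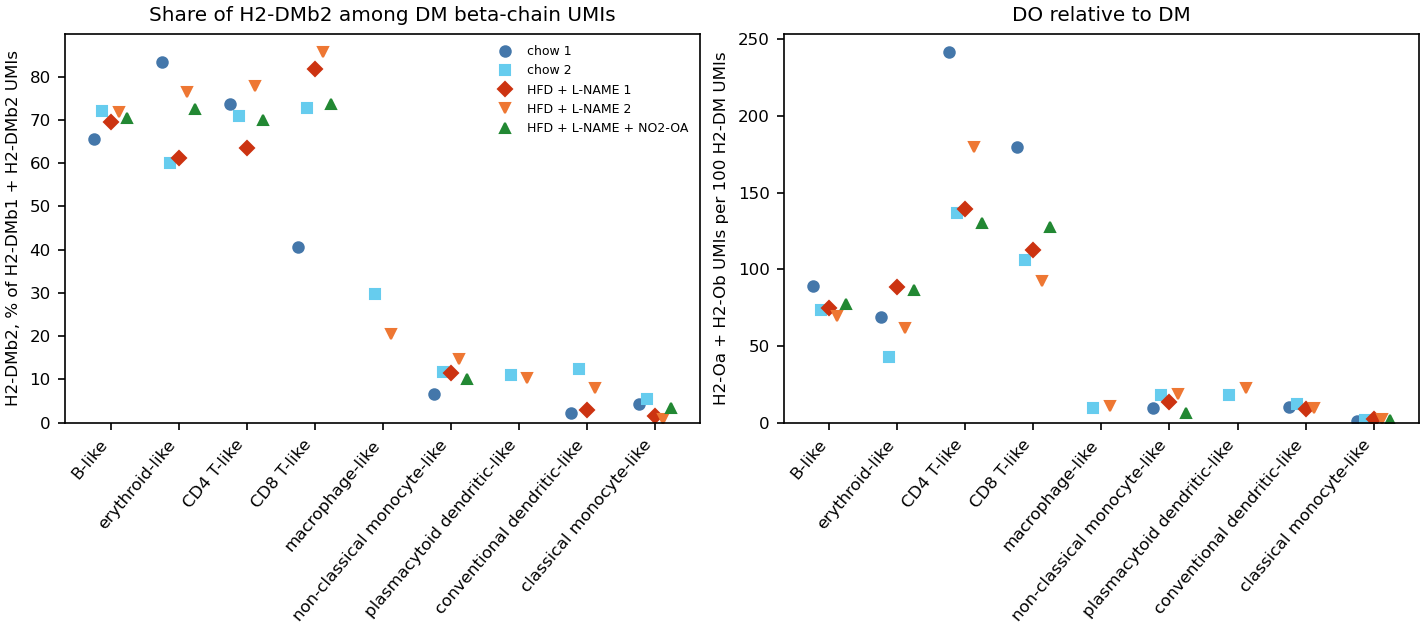
H2-DMb2 as a percentage of H2-DMb1 plus H2-DMb2 UMIs (left) and H2-Oa plus H2-Ob UMIs per 100 H2-DM UMIs (right), 1 point per library, for classes with at least 20 cells. B-like points lie at 65.7% to 72.1% on the left and the conventional dendritic-like and classical monocyte-like points at 0.870% to 12.5%; points of T-like cells rest on few UMIs.

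Ciita, the coactivator, was at 122.4, 97.0, 102.7, 83.6 and 104.5 CPM in B-like cells and at 58.4, 120.4, 44.2 and 68.6 CPM in conventional dendritic-like cells, with overlap. Per 1000 UMIs of the 3 chains it gave 13.7 to 28.5 UMIs in B-like cells and 4.56 to 8.29 in conventional dendritic-like cells, with no overlap. Ciita exons overlap those of Dexi on the opposite strand.

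Class II UMIs in droplets of other cells can come from B cells, as free RNA or as a B cell in the same droplet, and these sources were not told apart. Every class was therefore compared with what its own B-marker UMIs allow. For each library, the UMIs of Cd79a, Cd79b and Ms4a1 in a class were multiplied by the ratio of each class II gene to these markers in B-like cells. Pooled over libraries, erythroid-like cells were close to this expectation for all 10 genes. Ratios of observed to expected ran from 0.829 for H2-DMb1 to 1.03 for Ciita, among them 1.01 for Cd74 (6582 against 6525 UMIs) and 0.968 for H2-Ob. Single libraries of erythroid-like cells varied more, from 0.774 to 1.43 for Cd74, 0.775 to 1.52 for the 3 chains and 0.266 to 1.08 for H2-Ob. The interval of the counts was above 1 in 3, 2 and 0 of 5 libraries. In their 1016 of 1230 cells without any of these marker UMIs, Cd74 was at a median of 34.8 CPM, where all erythroid-like cells had 484.2 CPM. Their chain UMIs were unevenly spread: after thinning to 2000 UMIs, 69.7% of the 353 erythroid-like cells of NO2-OA had none and 74 had 5 or more. Platelet-like and neutrophil-like cells were at 1.10 and 1.32 for Cd74. Some other genes were further above the expectation there, with the 3 chains at 1.63 in neutrophil-like cells (interval of the counts above 1 in 4 of 4 libraries) and H2-Ob at 1.74 in neutrophil-like and 2.16 in platelet-like cells (above 1 in 2 of 4 and 3 of 5 libraries). With Ighm, Ighd and Igkc as the markers, the chains in neutrophil-like cells were at 1.075 (above 1 in 1 of 4 libraries) and Cd74 at 0.867. H2-Ob was then at 1.15 in neutrophil-like and 2.15 in platelet-like cells (above 1 in 1 of 4 and 2 of 5 libraries).

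With Cd79a, Cd79b and Ms4a1 as the markers, T-like cells were near the B-cell background for the chains and Cd74. They exceeded it for H2-DMa, H2-Oa and H2-Ob. In CD4 T-like cells the pooled ratio was 1.09 for Cd74 (1471 observed against 1355 expected UMIs) and 1.19 for the 3 chains together, with libraries from 0.964 to 1.37 and from 1.03 to 1.94. It was 12.8 for H2-Ob (943 against 73.4 UMIs) and 12.4 for H2-DMa (551 against 44.3 UMIs), with the interval of the counts above 1 in 5 of 5 libraries for each. H2-Oa stood at 4.94, above 1 in 4 of 5 libraries, and Ciita at 2.29 (50 against 21.8 UMIs), above 1 in 2 of 5 libraries. In CD8 T-like cells Cd74 was at 0.815, while H2-DMa was at 17.8 (887 against 49.8 UMIs), H2-Oa at 15.6 (324 against 20.7 UMIs) and H2-Ob at 11.6 (962 against 83.1 UMIs), each above 1 in 5 of 5 libraries. Ciita was at 1.775 in CD8 T-like cells (45 against 25.4 UMIs), above 1 in 2 of 5 libraries. With Ighm, Ighd and Igkc as the markers, Ciita was at 0.7425 in CD4 T-like and 0.631 in CD8 T-like cells. NK-like cells also exceeded the background for H2-DMa, at 5.21 (45 against 8.64 UMIs), above 1 in 4 of 5 libraries. The intervals are exact 95% Poisson intervals and cover counting error only.

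The same genes stayed high in T-like cells without any B-marker UMI. H2-Ob was at a median of 23.8 CPM in the 7029 of 7398 CD4 T-like cells without one, and at 23.4 CPM in all of them. In 5315 of 5732 CD8 T-like cells without one, H2-Oa was at 6.90 CPM and H2-DMa at 19.5 CPM. With Ighm, Ighd and Igkc as the markers, the CD4 T-like ratios were 4.26 for H2-Ob, 4.17 for H2-DMa and 1.63 for H2-Oa. The interval for H2-Oa was then above 1 in 2 of 5 libraries. Cd74 was below the expectation with these markers, at 0.364 in CD4 T-like and 0.296 in CD8 T-like cells. With predicted doublets kept, the CD4 T-like ratios of H2-Ob, H2-DMa and H2-Oa were 4.58, 4.78 and 2.59. H2-DMb1 (1.32) and H2-DMb2 (1.40) were near the expectation in CD4 T-like cells, so the H2-DM alpha chain exceeded it without either beta chain. Brd2, which overlaps H2-DMa, was at a median of 202 CPM in CD4 T-like and 187 CPM in CD8 T-like cells, and its part in the H2-DMa counts was not tested.

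By library, H2-Ob was at 23.6, 33.5, 17.4, 23.4 and 16.3 CPM in CD4 T-like cells and at 24.3, 27.1, 18.6, 19.3 and 15.9 CPM in CD8 T-like cells. The classes overlapped each other and regulatory T-like cells (13.8 to 29.9 CPM). With every cell thinned to 2000 UMIs, 3.09% to 7.14% of CD4 T-like cells had an H2-Ob UMI (7.58% to 17.9% unthinned), against 46.3% to 53.9% of B-like cells. In neutrophil-like cells, taken for comparison although H2-Ob was at 1.74 times the B-cell background there, the share was 0.702% to 2.04% thinned and 2.65% to 5.18% unthinned. In chow 1 the median depth was 5133 UMIs per CD4 T-like cell and 4018 per neutrophil-like cell. H2-Oa differed between T classes, at 5.69 to 10.1 CPM in CD8 T-like and 0.441 to 3.72 CPM in CD4 T-like cells, with no overlap.

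Macrophage-like cells, present in chow 2 and HFD + L-NAME 2, were far above the B-cell background for H2-DMa and H2-DMb1 only. H2-DMa was at 61.6 and 47.8 CPM, 14.1 times the expectation, and H2-DMb1 at 9.05 times. Cd74 (1.19), the 3 chains (1.03) and H2-DMb2 (1.04) were near the expectation. With Ighm, Ighd and Igkc as the markers, Cd74 was at 1.32, with the interval of the counts above 1 in 2 of 2 libraries. Brd2, which overlaps H2-DMa, was at a median of 104 CPM in these cells, and its part was not tested. In the 286 of 359 macrophage-like cells without a B-marker UMI, Cd74 was at 48.9 CPM against 144 CPM in all, and H2-DMa was at 54.8 CPM against 54.7 CPM.

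Conventional dendritic-like and monocyte-like cells were above the B-cell background for Cd74 and the chains with either set of B markers. The pooled ratio for Cd74 was 144 in conventional dendritic-like, 27.9 in classical monocyte-like, 14.0 in plasmacytoid dendritic-like and 13.02 in non-classical monocyte-like cells. With Ighm, Ighd and Igkc as the markers it was 44.1, 9.88, 1.68 and 6.38 in the same order, and in plasmacytoid dendritic-like cells the interval was then above 1 in 1 of 2 libraries. H2-DMb2 was at 1.95 in classical and 0.995 in non-classical monocyte-like cells, and H2-Ob at 1.59 and 1.80, so these genes were at or little above this background in monocytes. Conventional dendritic-like cells exceeded it for both, with ratios of 13.5 and 17.8. With Ighm, Ighd and Igkc as the markers, H2-DMb2 was at 4.41 in them, above 1 in 3 of 4 libraries. H2-Ob was then at 5.40, above 1 in 4 of 4. The ratios assume B-like proportions of the markers. Classical monocyte-like cells had 142 Cd79b, 53 Cd79a and 27 Ms4a1 UMIs, and plasmacytoid dendritic-like cells 34, 2 and 3. In B-like cells Cd79a was the most counted of these markers. Whether Cd79b raised the expectation, and so lowered the ratios, was not tested.

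**Figure D3:**
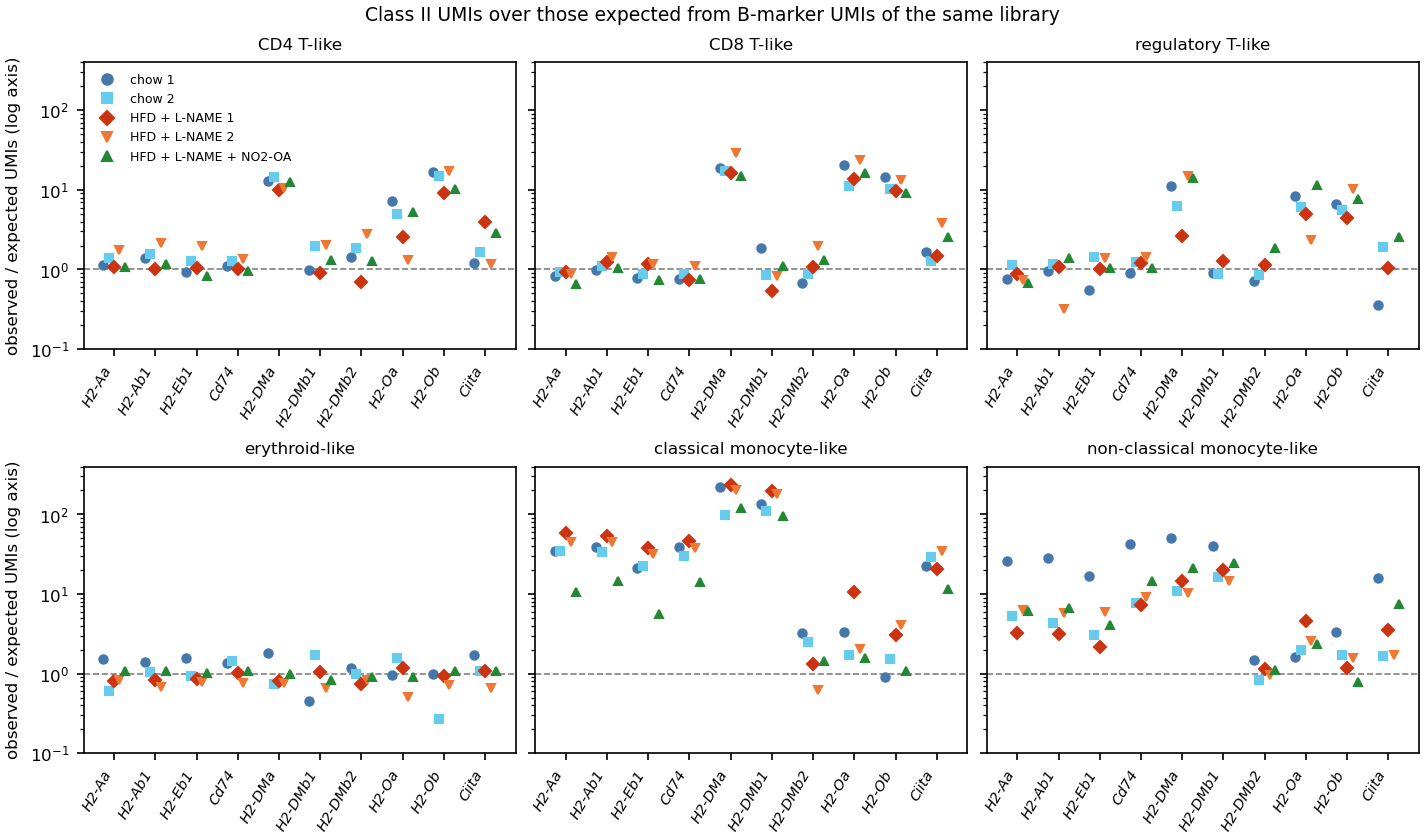
Observed UMIs over those expected from B-marker UMIs of the same library (log axis), 1 point per library, for 10 genes in 6 classes; the dashed line is at 1 and values of 0 are not drawn. Erythroid-like points scatter around 1 for all genes, while T-like points lie above 1 for H2-DMa, H2-Oa and H2-Ob (pooled 12.4, 4.94 and 12.8 in CD4 T-like cells).

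At least 5 UMIs of the 3 chains were found in most B-like cells but in few monocytes. After thinning to 2000 UMIs, 83.4%, 95.0%, 92.1%, 81.1% and 90.9% of B-like cells had at least 5 UMIs of the 3 chains, and 70.0% to 78.7% of conventional dendritic-like cells did in the 4 libraries with 47 or more of them. Of classical monocyte-like cells, 8.80%, 15.2%, 9.48%, 8.25% and 3.04% did, which were 25, 58, 29, 8 and 17 cells. The median classical monocyte-like cell had 0 such UMIs in each library, while the highest had 17 to 47. NO2-OA had the lowest share. Of non-classical monocyte-like cells, 5.12%, 2.99%, 0.627%, 1.52% and 1.62% did. Single UMIs of other members were more widely spread. Cd74 was found in 26.6% to 42.2% of thinned classical monocyte-like cells (53.2% to 72.2% unthinned), and H2-DMa in 19.8% to 30.1% (70.3% to 86.0% unthinned), against 26.8% to 43.6% of thinned B-like cells (54.2% to 76.9% unthinned).

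The B-like class consisted of 6 clusters that differed in their class II levels; since clustering used these cells, the differences are given as a description. Cluster 4, led by Agbl1, Iglc1, Akap12 and Cecr2, had H2-Aa at 1032, 2038, 1438, 1120 and 1423 CPM. That was a median of 0.595 times the mean of the other clusters, and the lowest of the 6 in 5 of 5 libraries. H2-Eb1 (0.616), H2-DMa (0.731) and H2-DMb2 (0.714) were also lowest there in 5 of 5 libraries, while H2-Ob (0.881) was lowest there in 0 of 5.

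Cluster 10, led by Igha, Sox5 and Jchain, had the lowest H2-Ob in 5 of 5 libraries, at 193.6 to 261.1 CPM, and Ciita at 56.6 to 93.7 CPM. Cluster 9 had the highest Ciita in 5 of 5 libraries, at 128.5 to 160.3 CPM. Cluster 4 made up 13.5%, 18.9%, 15.4%, 37.7% and 16.5% of B-like cells, most in HFD + L-NAME 2. Without it, H2-Aa of B-like cells was at 1941, 2934, 2461, 2192 and 2276 CPM.

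**Figure D4:**
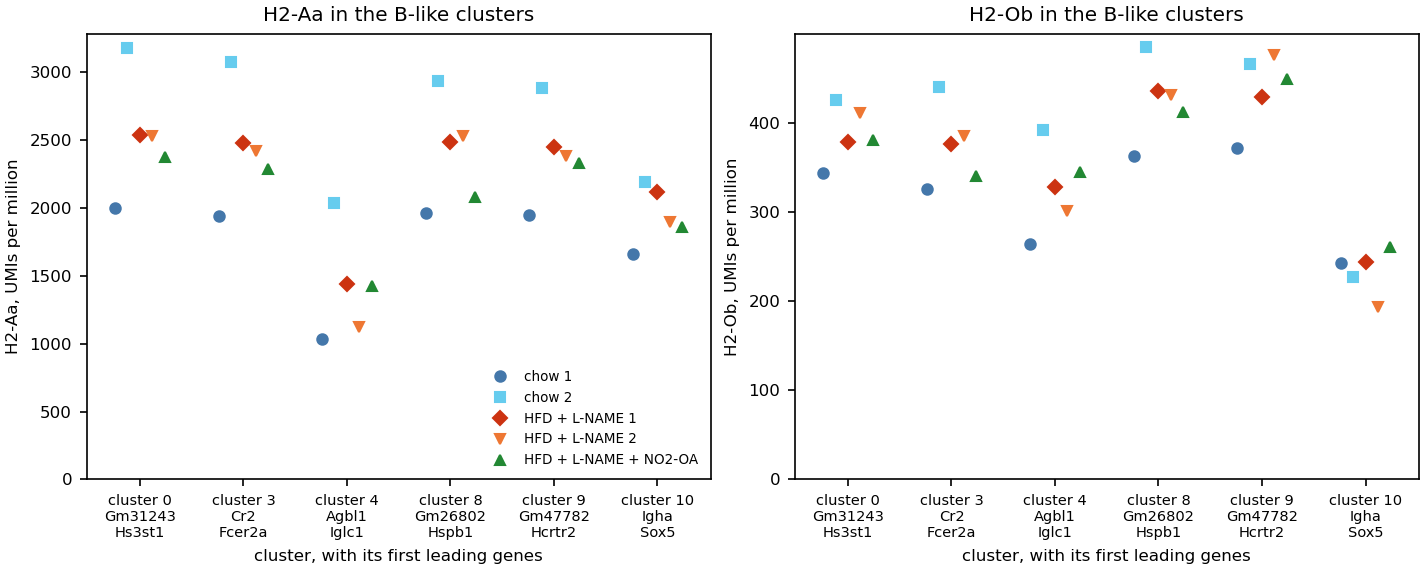
H2-Aa (left) and H2-Ob (right) in CPM in the 6 B-like clusters, 1 point per library, with the first leading genes of each cluster. Cluster 4 is lowest for H2-Aa in each library (1032 to 2038) and cluster 10 is lowest for H2-Ob (193.6 to 261.1).

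The regimen comparison asks whether the diet with L-NAME changed class II expression within a class. In B-like cells none of the 10 genes passed a false discovery rate of 0.05 in edgeR's quasi-likelihood test with Benjamini-Hochberg adjustment, where 0 of 17049 genes passed (percent called 0 in either direction). None had an unadjusted p under 0.05, against 1.24% of all genes, and DESeq2 also called none of them. The log2 fold changes ran from -0.39 ± 0.34 (SE) for H2-Oa to 0.17 ± 0.31 for Cd74. Their median was -0.06, beside -0.01 over all genes, with 4 of 10 above 0 (48.2% of all genes). No gene separated the groups, whereas 10.8% of all genes were higher and 12.2% lower without overlap.

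That no gene of the 10 was called in B-like cells does not show equal levels. Values of H2-Ab1 and H2-Oa were opposite within replicate numbers. Between libraries numbered 1, H2-Ab1 differed by 0.68 and H2-Oa by 0.29 on the log2 scale, higher in HFD + L-NAME. Between those numbered 2, the values were -0.36 and -0.89. Chow 1 had the lowest and chow 2 the highest H2-Ab1 of the 5 libraries (1214 and 2043 CPM). Summed platelet markers in B-like cells were at 802.2, 409.5, 503.8, 231.1 and 85.0 CPM and erythroid markers at 123.7, 68.3, 314.2, 486.5 and 615.5 CPM. Their part in these values was not tested. NO2-OA against the HFD + L-NAME libraries, which serve both comparisons, gave a median of 0.02 for the 10 genes in B-like cells (all genes -0.02), with none called, none at an unadjusted p under 0.05 (1.47% of all genes) and none called by DESeq2. There 0 of 17049 genes passed.

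In classical monocyte-like cells the class II chains and Cd74 were lower in NO2-OA than in both HFD + L-NAME libraries. H2-Aa was at 107.0 CPM in NO2-OA, at 359.7 and 348.3 CPM in HFD + L-NAME and at 283.3 and 684.4 CPM in chow. H2-Eb1 was at 45.8, against 192.5 and 226.7 CPM in HFD + L-NAME and 122.1 and 365.7 CPM in chow. Cd74 was at 448.8, against 900.7 and 1096 CPM in HFD + L-NAME and 956.1 and 1600 CPM in chow. NO2-OA was thus below each of the other 4 libraries for these genes and for H2-Ab1 (112.6 against 214.1 to 490.7 CPM).

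The log2 fold changes against HFD + L-NAME were -2.18 ± 0.66 (SE) for H2-Eb1, -1.72 ± 0.51 for H2-Aa, -1.35 ± 0.47 for H2-Ab1 and -1.14 ± 0.37 for Cd74. In edgeR's quasi-likelihood test their unadjusted p were 0.0131, 0.00841, 0.0184 and 0.0101, and after Benjamini-Hochberg adjustment each was 1, so none passed. Of all 11786 genes, 0 passed in either direction (percent called 0). Of the 10 genes, 4 had an unadjusted p under 0.05, against 1.53% of all genes, and 8 were lower without overlap, against 27.5% of all genes. The 1 gene higher without overlap (29.8% of all genes) and the 1 above 0 (49.8% of all genes) was H2-DMb2, at 1.73 CPM against 0.910 and 0.637. Their median was -1.08 beside -0.001 over all genes.

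The call for these 4 genes changed with the libraries fitted, the filter on low counts and the design. Fitted on the HFD + L-NAME and NO2-OA libraries alone, all 4 passed, with edgeR quasi-likelihood adjusted p of 2.89e-07 for H2-Eb1, 0.000131 for H2-Aa, 0.0119 for H2-Ab1 and 0.0226 for Cd74. Leaving out either chow library also gave 4. DESeq2, and the fits without either HFD + L-NAME library, called 0. Without a filter on low counts, H2-Eb1 (edgeR adjusted p = 0.000306) and H2-Aa (0.0152) passed on all 5 libraries. NO2-OA is 1 library, so its own spread is taken from the replicated groups. In the fit without chow and in those without 1 chow library, HFD + L-NAME was the only replicated group. Their adjusted p thus rested on the spread of the same pair of libraries, and these fits are not separate checks. At clustering resolution 2 the median of the 10 genes was -0.54.

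Of the accessory genes of classical monocyte-like cells, H2-DMa, H2-DMb1 and Ciita moved less than the chains and Cd74. H2-DMa was at 121.3 CPM in NO2-OA, against 146.5 and 164.9 CPM in HFD + L-NAME (log2 -0.35 ± 0.31), and H2-DMb1 gave -0.44 ± 0.36. Ciita was at 5.68 CPM against 5.69 and 12.1 CPM (-0.53 ± 0.54). The difference of the NO2-OA effect between classical monocyte-like and B-like cells was -2.09 ± 1.14 for H2-Eb1 and -1.73 ± 0.89 for H2-Aa, with edgeR adjusted p of 1 (0 of 14110 genes called, 0%). For H2-Oa and H2-Ob it was -1.59 ± 0.76 and -1.08 ± 0.56. These genes had only 27 and 61 UMIs in classical monocyte-like cells over all libraries. The effects in these classes were therefore not shown to differ.

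Other measures moved with this lower level. Classical monocyte-like cells fell into 3 clusters that followed libraries: the cluster led by Vcan, Chil3 and Mmp8 held 9, 1, 273, 35 and 556 cells, that led by Gm49144, F13a1 and AI839979 10, 376, 11, 30 and 9, and that led by Ifi213, Isg15 and Ifi211 271, 11, 26, 35 and 6. Within the first, H2-Aa was at 360 CPM in HFD + L-NAME 1, 161 CPM in HFD + L-NAME 2 and 102 CPM in NO2-OA, so NO2-OA was still the lowest. Summed conventional dendritic markers in classical monocyte-like cells were at 163.5, 273.3, 164.5, 189.8 and 125.2 CPM, with 1 of 6 measured markers above 0 in NO2-OA against HFD + L-NAME. Summed non-classical monocyte markers were at 516, 1148, 233.6, 689 and 173 CPM (0 of 10 above 0) and platelet markers at 681.4, 244.7, 333.7, 629.8 and 150.3 CPM (0 of 9). Macrophage markers were at 115.5 to 191 CPM, with NO2-OA at 149.4. The part of these in the result was not tested.

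The regimen alone gave no called gene of the 10 in classical monocyte-like cells, where 0.00848% of genes were called higher and 0% lower. Ciita was at 12.6 and 20.01 CPM in chow and 5.69 and 12.1 CPM in HFD + L-NAME, without overlap, with a log2 fold change of -0.96 ± 0.44 (edgeR unadjusted p = 0.0522, adjusted p = 0.999). It was -0.44 without HFD + L-NAME 1, -0.58 without chow 2 and -1.44 without HFD + L-NAME 2. H2-DMb2 rested on 8 and 27 UMIs in chow and 4 and 1 UMIs in HFD + L-NAME (-2.27 ± 0.85, unadjusted p = 0.0204, adjusted p = 0.999), at 1.95 times the B-cell background in this class. These were the 2 of 10 genes lower without overlap, against 16.1% of all genes, and H2-DMb2 was the 1 with an unadjusted p under 0.05, against 4.21%. DESeq2 called none. The median of the 10 genes was -0.23 (all genes -0.01), with 2 of 10 above 0 (48.6% of all genes), but it was 0.66 at clustering resolution 2. Without chow 1, where HFD + L-NAME was the only replicated group, the log2 fold change of H2-Aa was -0.91.

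In non-classical monocyte-like cells all 8 measured genes had log2 fold changes below 0 under the regimen, where 49.2% of all genes were above 0, and none passed (0 of 10772 genes, percent called 0). H2-DMb2 and H2-Oa fell under the filter on low counts. H2-DMa was at 28.1 and 30.5 CPM in chow and 17.3 and 18.5 CPM in HFD + L-NAME, a log2 fold change of -0.71 ± 0.25 (edgeR unadjusted p = 0.0204, adjusted p = 1). It was -0.69 between libraries numbered 1 and -0.70 between those numbered 2. H2-Aa was at 163.8 and 144.4 CPM in chow and 37.6 and 105.3 CPM in HFD + L-NAME (-1.14 ± 0.42, unadjusted p = 0.0315, adjusted p = 1), with -2.12 and -0.45 within the numbers. Cd74 went from 788.6 to 270.1 CPM between libraries numbered 1 and from 556.3 to 586.2 CPM between those numbered 2.

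The median of the 8 genes was -0.70 beside -0.005 over all genes. Of them, 3 were lower without overlap, against 14.5% of all genes, and 2 had an unadjusted p under 0.05, against 2.98%. DESeq2 called none. Chow and HFD + L-NAME libraries drew on different clusters here too. The cluster led by Hspa1b and Hsph1 held 642 cells of chow 1 and 0 of chow 2, the cluster led by Ccdc192 and Ear2 held 502 of chow 2, and the cluster led by Pecam1 and Il21r held 255 and 148 of HFD + L-NAME. B markers were at 54.0 and 107.8 CPM in chow and 64.8 and 106.7 CPM in HFD + L-NAME, and classical monocyte markers at 1988 and 3465 against 3553 and 4393 CPM. Their part in the result was not tested. Against HFD + L-NAME, NO2-OA gave a median of -0.25 for these genes (all genes -0.008), with none called, none at an unadjusted p under 0.05 (2.01% of all genes) and none called by DESeq2. That median was -0.71 without HFD + L-NAME 1, 0.26 without HFD + L-NAME 2 and -1.05 at clustering resolution 2. Of the 8, 2 were above 0 (48.8% of all genes), 2 were higher (32.2%) and 2 lower (32.4%) without overlap. There 0 of 10772 genes passed.

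**Figure D5:**
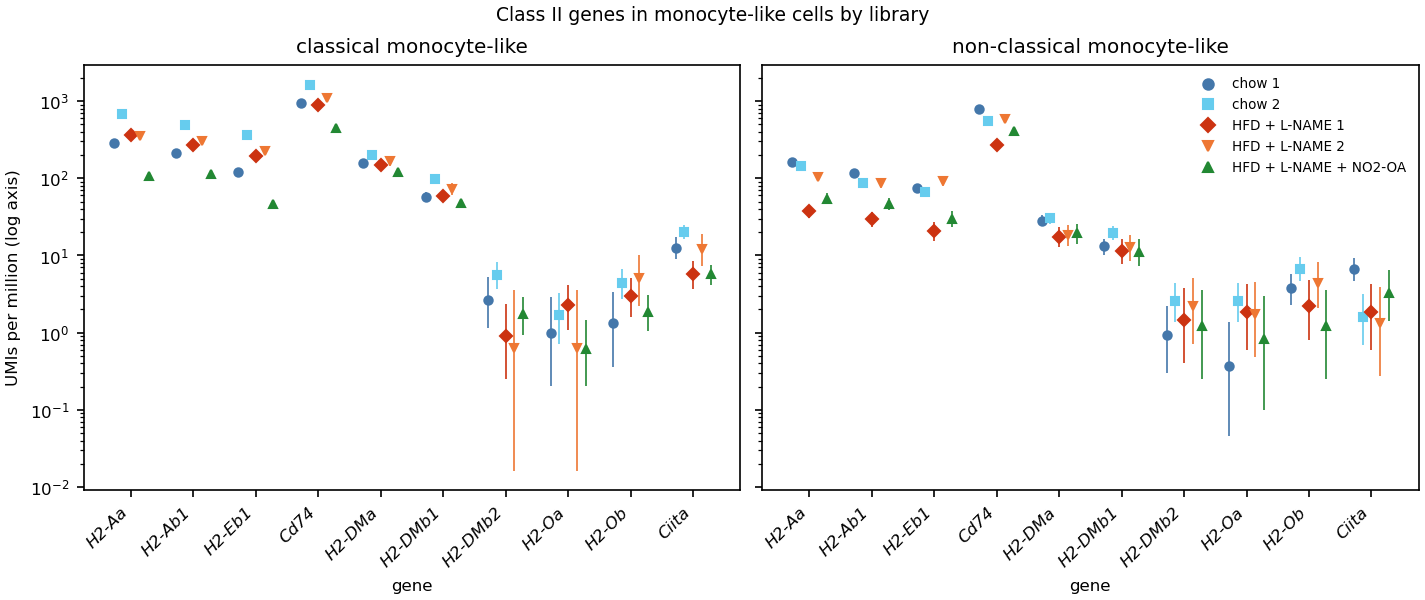
Levels of the 10 genes in CPM (log axis) in classical (left) and non-classical (right) monocyte-like cells, 1 point per library with its exact 95% Poisson interval, which covers counting error only. NO2-OA is the lowest of the 5 libraries for H2-Aa (107.0), H2-Ab1, H2-Eb1 and Cd74 on the left but not on the right, where HFD + L-NAME 1 is lowest (H2-Aa 37.6).

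Conventional dendritic-like cells could be compared between chow and HFD + L-NAME, with 2 libraries each. The 10 genes had a median log2 fold change of 0.006 beside -0.004 over all genes, with 5 of 10 above 0. None passed in edgeR's quasi-likelihood test, where 0 of 8092 genes did (0%). The furthest from 0 was Ciita at -0.67 ± 0.40. In CD4 T-like cells edgeR called no gene of the 10 under the regimen, where 1 had an unadjusted p under 0.05 (1.73% of all genes) and the median was -0.18 (all genes 0.002). In NO2-OA none was called and none had an unadjusted p under 0.05 (1.86% of all genes), with a median of -0.35 (all genes -0.03) and 5 of 10 lower without overlap, against 32.9% of all genes. Of 14185 genes tested, 0 passed. In CD8 T-like cells the median of the 9 measured genes was -0.45 in NO2-OA (all genes -0.002) and 0.02 under the regimen (all genes -0.007). In regulatory T-like cells the median of the 8 measured genes was -0.70 in NO2-OA (all genes -0.008) and -0.14 under the regimen (all genes -0.013). None of these genes was called.

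The rest of the pathway was followed through 4 lists: 16 regulators, 15 genes of processing and turnover, 9 of co-stimulation and 14 of class I presentation. None of their members was called in B-like or monocyte-like cells by edgeR in either comparison. In B-like cells the best-counted regulators were Pax5, which directs B-cell identity (mean 570.4 CPM, regimen log2 fold change -0.26 ± 0.25), and Irf4 (296.7 CPM, -0.38 ± 0.23). Under the regimen, 6 of 16 regulators, 7 of 15 processing genes, 4 of 8 measured co-stimulation genes and 7 of 14 class I genes were above 0 there. Of all genes, 48.2% were above 0. The medians of the 4 lists lay between -0.08 and 0.04. Rfx5, a subunit of the X-box factor, was at 12.7 CPM in B-like and 13.01 CPM in plasmacytoid dendritic-like cells.

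In classical monocyte-like cells the best-counted processing genes were Ctss, the protease that trims Cd74 (1389 CPM, regimen 0.18 ± 0.24), and Ctsb (0.09 ± 0.24). For NO2-OA, 7 of 15 measured regulators and 6 of 15 processing genes were above 0, against 49.8% of all genes. The medians of these lists were -0.003 and -0.03, beside -1.08 for the 10 class II genes. In non-classical monocyte-like cells under the regimen, 2 of 14 class I genes were above 0, against 49.2% of all genes. Of the 14, 7 were lower without overlap (14.5% of all genes were) and 5 had an edgeR unadjusted p under 0.05 (2.98%). Their median was -0.18. Chosen after their values were seen, Tap1, a subunit of the peptide transporter, gave -1.11 ± 0.34, Nlrc5, the class I counterpart of Ciita, -1.12 ± 0.36 and the regulator Irf8 -0.98 ± 0.23, each with an adjusted p of 1.

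The genes most like the 10 across the 13 classes were sought among 8229 others by Pearson's r with their mean log2(CPM + 1). The classes share libraries, and r is a description. Fgd2, a guanine nucleotide exchange factor, came first (r = 0.902), at 50.2 CPM in B-like and 113.7 CPM in conventional dendritic-like cells. Pkib (0.900), Kynu (0.893), Bcl11a, a transcription factor of lymphoid and plasmacytoid dendritic cells (0.885), and Dennd5b (0.874) followed, then Flt3 (0.871), itself a marker used for naming. Carmil1 (0.838), Siglecg (0.837), Gm20513 (0.834), a transcript antisense to H2-Eb1, and Ly86 (0.806) closed the list. Among the 10 themselves, r with the mean of all ran from 0.561 for H2-Ob, 0.816 for H2-Oa and 0.850 for H2-DMa to 0.986 for H2-Eb1.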

How the data were processed

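UMI counts per gene and barcode were used as the authors deposited them. Cell Ranger 7.1.0 made them, per the file headers, after bcl2fastq and on build mm39, per the submitters' processing notes; further settings are not given in the sources used here. The members, lists and letters searched were chosen with earlier results of these data known, and the limits for naming clusters were chosen after seeing the data. Barcodes with at least 200 genes and under 10% mitochondrial UMIs were kept. The top scrublet scores, 0.8% per 1000 barcodes, were left out as doublets. Cells were clustered with Leiden in scanpy 1.11.5 without the class II genes. Monocyte and dendritic clusters come from a second round among myeloid cells. The B-cell background used 3 of the 4 B markers planned; the other is not reported here. Counts were summed per class and library and tested with edgeR 4.0.16 (filterByExpr, TMM, robust quasi-likelihood, group only, 5 libraries sharing 1 spread) with Benjamini-Hochberg adjustment at 0.05. The SE is the log2 fold change over the root of F. The difference of effects used 1 model over classes with the library as a block. Overlaps and transcripts came from GENCODE M21. Named were all members, members of other lists that passed or else the 2 with the highest mean, and the 10 most similar genes; others are marked or were named for their role. Alternatives were DESeq2, other normalization, filters, doublets, resolution, the replicate block and each library left out.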

Additional observations from a re-analysis of the deposited data

How the results depend on the processing

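No result changed sign as a call. Over the alternatives, 216 of 222 counts of called members in B-like and monocyte-like cells were 0. Each fit gave a count of genes higher and a count of genes lower, and differences of effects between classes were included. The 222 are therefore not separate alternatives. The exceptions were in classical monocyte-like cells, and the fits that called the most genes took their spread from the HFD + L-NAME pair only. For NO2-OA, 2 genes were called lower without a filter on low counts, 1 (H2-Eb1, -1.79) with a replicate block, 4 with only the libraries compared, and 0 to 4 with 1 library left out. For the regimen, 0 to 1 were called lower with 1 library left out. With 1 library left out, medians of the 10 genes under the regimen ran from -0.30 to 0.35 in B-like (0.35 without chow 2), -0.69 to 0.30 in classical and -1.17 to -0.33 in non-classical monocyte-like cells. For NO2-OA they ran from -0.11 to 0.14, -1.24 to -0.87 and -0.71 to 0.26. At clustering resolution 2 the medians were -0.54 (NO2-OA) and 0.66 (regimen) in classical and -1.05 (NO2-OA) in non-classical monocyte-like cells. The cause was not tested.

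The labels do not say whether libraries with the same replicate number share a batch; the prefixes of the deposited matrices split them the same way as the numbers, and the numbers were not taken to pair them. Deviations correlated at 0.346 in B-like, 0.093 in classical and 0.163 in non-classical monocyte-like cells. With the replicate block the regimen medians were -0.03, -0.14 and -0.72, and it changed no call of the 10 genes besides H2-Eb1. Over all genes of classical monocyte-like cells, 1 was called higher and 0 lower under the regimen, against 97 and 36 with the block, 14 and 3 with DESeq2 and 77 and 19 without the filter. In B-like cells NO2-OA gave 0 lower, 69 with the block and 43 with DESeq2. In classical monocyte-like cells it gave 0 lower, 16 with the block, 2 with DESeq2, 11 without the filter and 25 with only the libraries compared.

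Levels as the mean summed CPM of the 10 genes rose with predicted doublets kept, to 262.1 in CD4 T-like, 310.0 in CD8 T-like, 898.0 in regulatory T-like, 1155 in NK-like, 865.4 in neutrophil-like, 926.7 in platelet-like, 2209 in erythroid-like and 599.7 in macrophage-like cells. The neutrophil-like class then held 6, 0, 12, 23 and 115 cells, in place of 309, 8, 293, 529 and 485. Macrophage-like cells had 421.0 with class II genes among the clustering genes, 163.5 at resolution 2, 162.9 with a mitochondrial share below 5% and 157.1 without cells with a B-marker UMI, which gave 71.56 in erythroid-like cells. Non-classical monocyte-like cells had 1330 at resolution 2 and platelet-like cells 681.8 with a mitochondrial share below 5%.

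With Ighm, Ighd and Igkc as B markers, observed over expected was 0.396 for the chains, 4.17 for H2-DMa, 1.63 for H2-Oa and 4.26 for H2-Ob in CD4 T-like cells. It was 0.342, 6.51, 5.71 and 4.18 in CD8 T-like cells, and 0.410, 2.74 and 2.34 for the chains, H2-Oa and H2-Ob in regulatory T-like cells. With predicted doublets kept, H2-DMa, H2-Oa and H2-Ob were at 4.78, 2.59 and 4.58 in CD4 T-like, at 5.78, 5.51 and 4.11 in CD8 T-like (chains 1.13) and at 2.0, 2.0 and 1.77 in regulatory T-like cells. Depth limits H2-DMb2, H2-Oa and H2-Ob in monocyte-like cells, where each had 26 to 73 UMIs per class over all libraries, and in NK-like cells, where they had 7, 10 and 29.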

Other observations

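A few small groups of cells fell outside the named classes and carried class II transcripts. An unnamed cluster of 36 cells led by Retnla, Mrc1, Fcrls and Lyz1, 13 of them from chow 2 and 23 from HFD + L-NAME 2, had Cd74 at 12200 CPM and H2-Aa at 5230 CPM in HFD + L-NAME 2. H2-DMb2 was at 111 CPM and H2-Ob at 21.6 CPM in it. Within conventional dendritic-like cells, the cluster led by Cadm1 and Ccser1 had H2-Ob at 83.3 CPM in chow 1 (24 cells) and 188 CPM in chow 2 (22 cells). The Cd209a cluster had 21.9 and 33.6 CPM in the same libraries.

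Of the class II genes outside the 10, H2-Eb2 followed the B-like pattern of H2-DMb2 and H2-Ob. It had 8996 UMIs in B-like cells (55.8 CPM) and 19 in conventional dendritic-like cells (4.06 CPM). H2-Ea, the I-E alpha chain, had 134 UMIs in B-like cells (0.832 CPM) and 5 in conventional dendritic-like cells.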
